A study of Mus musculus with 12 samples.

Results

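Transcripts of 10 genes that import, carry, store, export and sense iron were examined in embryonic mouse kidneys that lacked the bradykinin B2 receptor, beside wild-type (WT) kidneys. The genes were *Slc40a1*, *Heph*, *Cp*, *Tfrc*, *Trf*, *Slc11a2*, *Fth1*, *Hmox1*, *Aco1* and *Ireb2*. Probes were assigned to them through the accession printed on the array, which gave 14 of the 41174 probes and covered all 10 genes. A probe is called detected here on an array, for one genotype, where the scanner software flagged that genotype's signal as well above background. Of the 14 probes, 11 probes for 9 genes were detected for either genotype on 6 or more of 12 arrays, and so belonged to the 22985 probes tested. The single *Cp* probe and 1 of the 2 probes each of *Ireb2* and *Heph* were detected too seldom. The genes were chosen with their null over WT values in these arrays already known, *Slc40a1* for the size of its difference, so those values are given as a description and carry no test.

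The *Bdkrb2* null and WT kidneys were taken at embryonic day 14.5 on a C57BL/6 background. *Bdkrb2* encodes the bradykinin B2 receptor. The mothers, heterozygous for *Bdkrb2* and mated with heterozygous mice, ate food with 5% sodium, so both genotypes shared the gestational salt load and no unsalted kidney enters these comparisons. Null and WT RNA was hybridised together on 12 two-colour arrays, with null RNA in Cy5 on the null/WT arrays and in Cy3 on the WT/null arrays. Each orientation had 3 replicates on 2 arrays each, and a slide held the 4 arrays of one replicate number. The labels do not say whether an RNA sample came from 1 embryo or several, nor whether both orientations of a number used the same RNA. If they did, 3 pairs of RNA samples stand behind the 6 values. The p-values below therefore measure only the spread between these samples, which may be technical.

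The share of detected spots was lowest in Cy3, at 41.2%. The slide of number 3, on which *Slc40a1* stood near WT, had the wider ratios: the SD of log2 ratios was 0.25 to 0.38 on its 4 arrays, against 0.16 to 0.20 on the 8 arrays of numbers 1 and 2. The highest SD was that of the first array of WT/null replicate 3, whose duplicate arrays correlated at 0.711, against 0.824 to 0.923 for the other replicates. The *Bdkrb2* probe was detected in null RNA on 0 of 12 arrays and in WT RNA on 1 of 12, too dim to check the labels. All 10 tested markers of the kidney anlage, among them *Pax2*, *Six2* and *Wt1*, were detected on every array in both genotypes, while the *Ret* probe was detected on at most 5 of 12. Skeletal muscle markers were higher in null, most on the slide of replicate number 3. There the list's mean log2 null over WT was 1.55 in null/WT and 1.33 in WT/null. It was 0.40 and 0.29 on number 2, and 0.12 and 0.06 on number 1.

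Cells take up iron bound to transferrin through the transferrin receptor, move it into the cytosol through the divalent metal transporter DMT1, store it in ferritin and release it through ferroportin, the iron exporter of vertebrate cells. Copper-containing ferroxidases oxidise the exported iron so that transferrin can bind it, and heme oxygenase frees iron from heme. Iron regulatory proteins sense cytosolic iron and bind iron-responsive elements in the messengers of several of these genes. The ferroportin and ferritin messengers are then translated less, and the transferrin receptor messenger is protected from decay. In the kidney these proteins take part in the recovery of filtered iron by the tubule.

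*Slc40a1*, the ferroportin gene, had much less signal in the null kidneys of replicate numbers 1 and 2 than in WT kidneys, and not in those of number 3. In null RNA its normalised log2 signal was 8.47, 8.52 and 10.86 in null/WT replicates 1, 2 and 3, and 8.49, 8.65 and 10.67 in WT/null replicates 1, 2 and 3. In WT RNA it was 10.51, 10.84 and 10.53 in null/WT replicates 1, 2 and 3, and 10.78, 11.05 and 10.71 in WT/null replicates 1, 2 and 3. WT signals thus stayed within 10.51 to 11.05 on every slide. The null signals divided into a low set of 4 values (8.47 to 8.65) and a high set of 2 (10.67 and 10.86) within the WT range. Both orientations of a number shared a slide and may have shared RNA, so the sets may stand for 2 null samples and 1. On the slides of numbers 1 and 2 the null and WT signals of this gene, chosen for its difference, did not overlap. How many other tested probes also did not overlap there was not counted. These are whole kidneys, in which fewer cells that express a gene and less RNA per cell cannot be told apart.

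**Figure D1:**
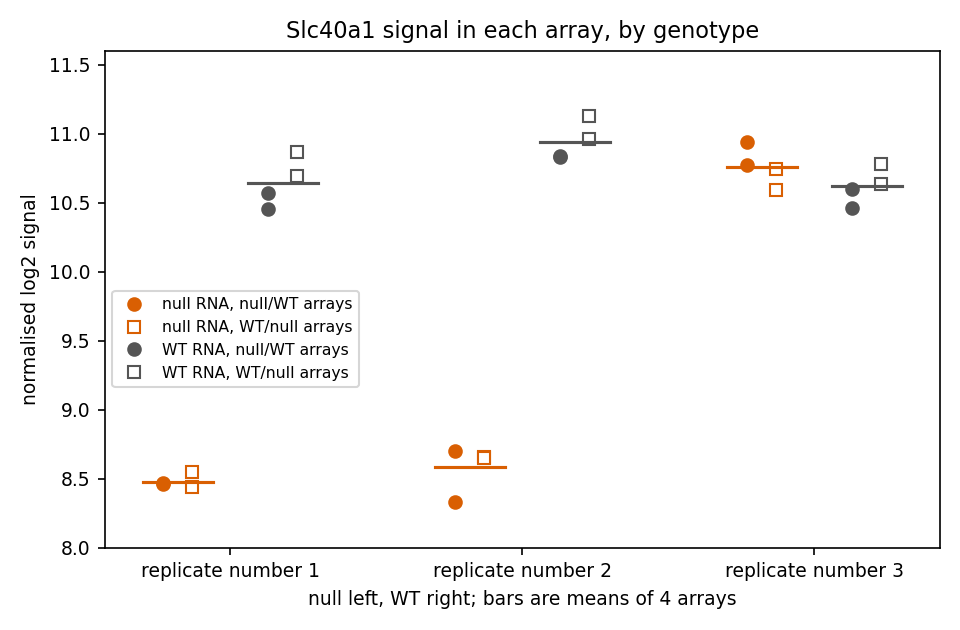
Normalised log2 signal of the *Slc40a1* probe on each array, null left and WT right at each replicate number, with filled circles for null/WT arrays, open squares for WT/null arrays and bars for means of 4 arrays. Null signals sit near 8.5 at numbers 1 and 2 and near 10.8 at number 3, and WT signals lie between 10.4 and 11.2 throughout.

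As log2 null over WT, *Slc40a1* gave -2.04, -2.32 and 0.33 in null/WT replicates 1, 2 and 3, and -2.29, -2.39 and -0.04 in WT/null replicates 1, 2 and 3. The 4 values of numbers 1 and 2 averaged -2.26 ± 0.15 (SD, n = 4, on 2 slides), a 4.79-fold lower level in null. The 2 values of number 3 averaged 0.14. Both dye orientations showed the same split, and so did the duplicate arrays: the 8 arrays of numbers 1 and 2 ran from -2.50 to -1.99 and the 4 arrays of number 3 from -0.05 to 0.34. Over all 6 replicates the mean was -1.46 ± 1.25 (SD, n = 6), lower in null in 5 of 6, and this mean describes none of the slides. *Slc40a1* has 1 probe on the array, detected on 12 of 12 arrays in each genotype and saturated on 0, so a second probe could not be set beside it.

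The rankings below were set up after the values of *Slc40a1* had been seen, and the gene was chosen for this difference. By the mean of numbers 1 and 2, *Slc40a1* stood lowest of the 22985 tested probes. By the mean of all 6 replicates the lowest tested probe stood at -1.88 and *Slc40a1* at -1.46. On single slides it ranked 5 from the lowest on number 1, 3 on number 2 and 19349 on number 3. Only 3 probes stood at -1 or lower on both numbers 1 and 2. The other 2, *Serpina1d* (-1.07, -2.07 and -0.83 on numbers 1, 2 and 3) and *Tedc1* (-1.13, -1.22 and -1.17), were also below 0 on number 3. The mean of numbers 1 and 2 minus number 3 was -2.40 on the log2 scale for *Slc40a1*, and 4 probes, itself included, had a gap of at least that size. *Hunk*, a protein kinase gene, had the opposite pattern, with 3.52 and 2.64 on numbers 1 and 2 and 0.02 on number 3. *Hddc3* gave -2.44, 0.01 and 1.66, and the embryonic myosin gene *Myh3* gave 0.14, 0.41 and 2.92.

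**Figure D2:**
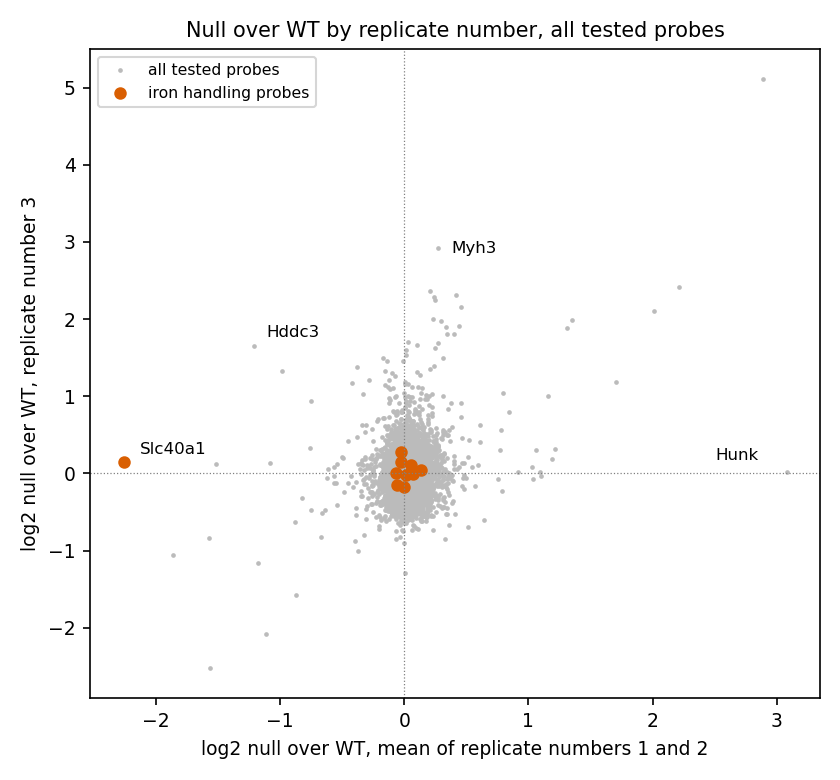
Log2 null over WT of every tested probe, as the mean of replicate numbers 1 and 2 (horizontal axis) and as number 3 (vertical axis), with the iron handling probes in orange. *Slc40a1* lies alone at -2.26 and 0.14, and the other 10 iron handling probes lie close to the origin.

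*Slc40a1* lies on chromosome 1, and its neighbours there did not share its pattern. The 5 nearest tested genes on each side had means between -0.11 and 0.29, and on numbers 1 and 2 none of these 10 was below -0.17. The nearest on one side, *Wdr75*, gave -0.03, -0.17 and -0.12 on numbers 1, 2 and 3, and the nearest on the other, the zinc transporter gene *Slc39a10*, gave 0.06, -0.06 and 0.09. These neighbours were looked up after the values of *Slc40a1* had been seen. Of all 22985 tested probes only 3, *Slc40a1* among them, stood at -1 or lower on both numbers 1 and 2. Nearly any 10 genes would thus lack its pattern, and no conclusion is drawn from these.

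Among 12645 other tested genes, those whose 6 log2 ratios correlated best with *Slc40a1* (Pearson's r over 6 replicates that share 3 slides) differed from it in level. *Slc22a6*, an organic anion transporter gene of the proximal tubule, had r = 0.998, but its ratios were 0.01, 0.00 and 1.16 on numbers 1, 2 and 3. *Adcy1* (r = 0.996) gave -0.00, -0.02 and 0.26, and *Calml4* (r = 0.996) gave 0.01, -0.00 and 0.87. *Mt2*, a metallothionein gene that binds zinc and copper, had r = 0.993 with -0.37, -0.38 and 1.38. *Sucnr1*, the succinate receptor gene, had r = 0.993 with -0.08, -0.23 and 1.33. These genes were thus near or slightly below WT level on the first 2 slides and above it on the third, whereas *Slc40a1* was far below WT on the first 2 slides and near it on the third. Among the members, the correlation with *Slc40a1* ran from -0.49 for *Aco1* to 0.45 for *Hmox1*.

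*Heph* encodes hephaestin, a membrane ferroxidase that works beside ferroportin, and its log2 null over WT was 0.09, -0.15 and 0.15 on numbers 1, 2 and 3. Its brighter probe had null signals of 8.10, 7.99 and 7.77 in null/WT replicates 1, 2 and 3 and 8.07, 8.22 and 8.10 in WT/null replicates 1, 2 and 3. The WT signals were 8.04, 8.26 and 7.80, and 7.95, 8.24 and 7.77. The genotypes overlapped, with a mean log2 null over WT of 0.03 ± 0.20 (SD, n = 6), higher in null in 3 of 6. *Cp* encodes ceruloplasmin, the ferroxidase of plasma. Its probe was detected in null RNA on 3 of 12 arrays and in WT RNA on 2 of 12, and its signals bear no comparison.

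*Tfrc*, the transferrin receptor gene, gave ratios whose sign followed the dye. The null signals were 7.99, 8.12 and 7.97 in null/WT replicates 1, 2 and 3 and 7.77, 7.90 and 7.62 in WT/null replicates 1, 2 and 3. The WT signals were 7.67, 7.90 and 7.67, and 7.88, 8.13 and 7.91. In every replicate the RNA labelled with Cy5 was the brighter, whichever genotype it came from. The ratios were 0.32, 0.22 and 0.30 in null/WT and -0.12, -0.24 and -0.29 in WT/null, with a mean of 0.03 ± 0.28 (SD, n = 6).

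*Trf* encodes transferrin, the plasma carrier of iron. Its null signals ranged from 7.89 to 8.14 and its WT signals from 7.80 to 8.05, and the genotypes overlapped. The ratio was above 0 in 5 of 6 replicates, from 0.05 to 0.25, and was -0.16 in WT/null replicate 3. By dye orientation it averaged 0.22 in null/WT and -0.01 in WT/null. The mean of 0.11 ± 0.15 (SD, n = 6) was the highest among the tested probes of the 10 genes.

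*Slc11a2* encodes DMT1, which carries ferrous iron across membranes. Its brighter probe, A_52_P254298, gave ratios of -0.12, -0.11 and 0.03 in null/WT replicates 1, 2 and 3 and 0.07, -0.09 and -0.03 in WT/null replicates 1, 2 and 3, a mean of -0.04 ± 0.08 (SD, n = 6). The dimmer one, A_51_P388737, was detected in null RNA on 7 of 12 arrays and in WT RNA on 6 of 12. It gave -0.09, -0.09 and -0.06 in null/WT replicates 1, 2 and 3 and 0.04, 0.04 and 0.62 in WT/null replicates 1, 2 and 3. Its sign thus followed the dye, and its mean was 0.08 ± 0.27. The means of the probes disagreed in sign, and both were smaller than the spread between replicates.

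*Fth1* encodes the heavy chain of ferritin, which holds the site that oxidises stored iron. Its null signals were 14.91, 14.46 and 14.02 in null/WT replicates 1, 2 and 3 and 15.10, 15.27 and 15.72 in WT/null replicates 1, 2 and 3. The WT signals were 14.74, 14.43 and 13.84, and 15.00, 15.28 and 15.92. Differences between arrays were larger than those between genotypes, with a mean ratio of 0.05 ± 0.14 (SD, n = 6), higher in null in 4 of 6. The spot was an outlier on 3 of 12 arrays and was left out there, so 3 of these replicates rest on 1 array.

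*Hmox1* encodes heme oxygenase 1, the inducible enzyme that opens the heme ring. The null signals were 11.37, 11.17 and 11.26 in null/WT replicates 1, 2 and 3 and 11.32, 11.06 and 11.04 in WT/null replicates 1, 2 and 3. The WT signals were 11.29, 11.08 and 11.08, and 11.22, 11.13 and 11.01. The genotypes overlapped, and the mean ratio was 0.07 ± 0.08 (SD, n = 6), higher in null in 5 of 6 replicates.

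*Aco1* and *Ireb2* encode iron regulatory proteins 1 and 2. The first doubles as a cytosolic aconitase when it holds an iron-sulfur cluster, and the second is degraded when iron is plentiful. The brighter *Aco1* probe, A_51_P391082, had null signals from 12.32 to 12.78 and WT signals from 12.32 to 12.77, and its mean ratio was -0.06 ± 0.15 (SD, n = 6). The dimmer one, A_52_P299115, gave 0.15, 0.14 and 0.09 in null/WT and -0.11, -0.11 and -0.14 in WT/null, a sign that followed the dye, with a mean of 0.00 ± 0.14. *Ireb2*, by its probe A_52_P680908, gave -0.05, -0.24 and -0.04 in null/WT replicates 1, 2 and 3 and 0.01, 0.06 and -0.25 in WT/null replicates 1, 2 and 3. Its mean was -0.08 ± 0.13 (SD, n = 6), lower in null in 4 of 6, with overlapping genotypes.

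**Figure D3:**
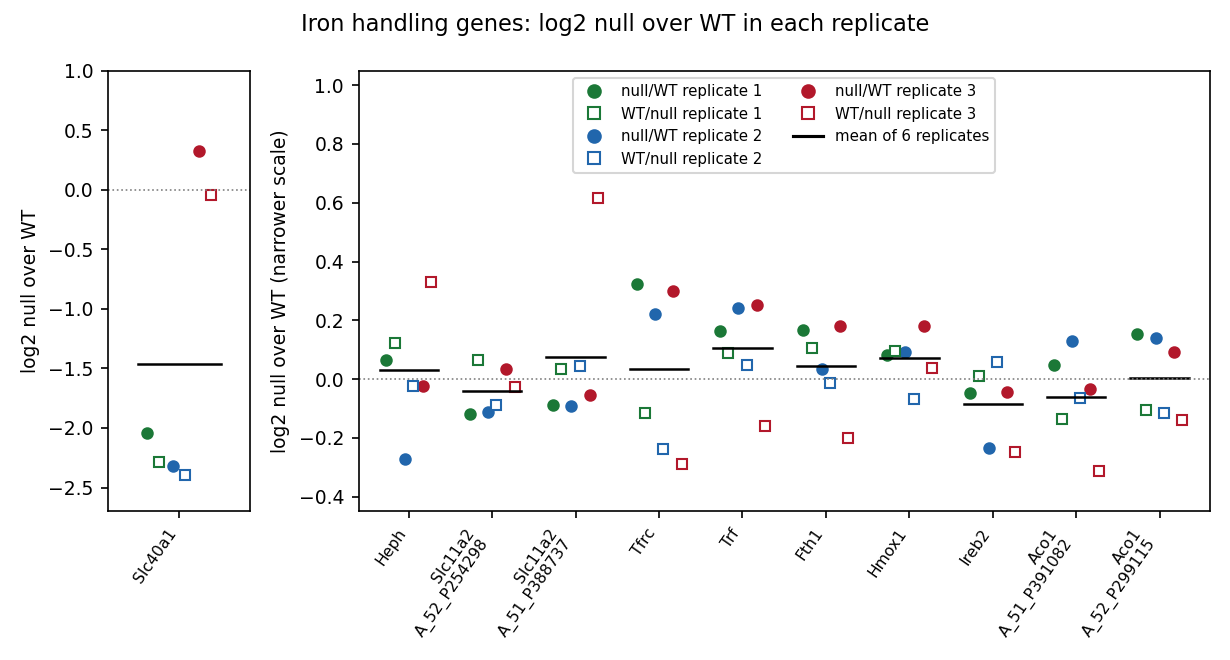
Log2 null over WT of each tested iron handling probe in the 6 replicates, with colour for the replicate number, filled circles for null/WT, open squares for WT/null and a bar for the mean. *Slc40a1* (left, wider scale) splits into 4 values near -2.3 and 2 near 0, and single replicates of the other probes lie between -0.31 and 0.62.

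The genes were chosen on these ratios, so the counts that follow describe them and test nothing. In the limma fit over all 22985 probes, 0 of their 11 probes passed an adjusted p of 0.05, where 0.0392% of all probes passed, 0.0218% higher and 0.0174% lower in null. These shares stand for 5 probes higher and 4 lower, and with median centring in place of loess for 5 and 1. An unadjusted p under 0.05 was found for 2 of the 9 genes by their brightest probe, against 7.78% of all tested genes (7.00% of probes). With the replicate numbers as pairs, 0 of the 11 passed, against 0.0174% of all probes (3.31% had an unadjusted p under 0.05). Without number 3, 1 of the 11 passed (*Slc40a1*), against 0.270%.

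The median over the 9 genes was 0.03, with 5 higher and 4 lower in null, and the median over all tested genes was -0.00. Median centring moved the median of all tested probes to 0.14, and under it *Aco1* (A_51_P391082) stood at 0.14, *Slc11a2* (A_52_P254298) at 0.08 and *Ireb2* (A_52_P680908) at 0.01, above 0 where loess put them below. *Slc40a1* stood at -1.29 under the same setting. Dye orientation means of opposite sign were found for 7 of the 11 probes, against 65.5% of all tested probes, and 0 of 11 had the same sign in 6 replicates, against 2.92%.

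Of 66 other genes of iron and heme handling, 52 were tested and 0 passed an adjusted p of 0.05 in the limma fit, against 0.0237% of all 12654 tested genes. An unadjusted p under 0.05 was found for 3 of them, against 7.78% of all tested genes. Of the 52, 28 were higher in null and 24 lower, with a median of 0.01, and 48.1% of all tested genes were higher. Means ran from -0.12 for *Slc39a14*, a transporter of zinc and non-transferrin iron, to 0.23 for *Epas1*, which encodes hypoxia-inducible factor 2 alpha. Averaged by replicate number, the lowest value was -0.46 on numbers 1 and 2 and -0.38 on number 3. None of these 52 genes came near the low values for which *Slc40a1* was chosen. Such values were rare everywhere: only 3 of all 22985 tested probes stood at -1 or lower on both numbers 1 and 2.

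The genes with the smallest p were named in each direction. *Epas1* stood at 0.23 ± 0.05 (SE, n = 6, limma adjusted p = 0.353), higher in null in 6 of 6 replicates. *Hp*, the gene of the hemoglobin scavenger haptoglobin, stood at 0.14 ± 0.05 (limma adjusted p = 0.678), and the transporter gene *Flvcr2* at 0.19 ± 0.08 (limma adjusted p = 0.701). On the lower side were *Nubp1*, which serves the assembly of cytosolic iron-sulfur clusters, at -0.08 ± 0.04 (limma adjusted p = 0.710, lower in 6 of 6), and the heme synthesis genes *Cpox* at -0.09 ± 0.06 and *Ppox* at -0.07 ± 0.04 (limma adjusted p = 0.724 for both). *Epas1* and *Nubp1* were the 2 of the 52 genes with one sign in all 6 replicates, which 3.04% of all tested genes had.

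By role, transport and uptake genes were higher in null in 8 of 12 (median 0.05), where 48.1% of all tested genes were higher. Their median was -0.05, 0.03 and 0.24 on numbers 1, 2 and 3. Genes of systemic control were higher in 5 of 7 (median 0.05) and storage and chaperone genes in 2 of 4 (median 0.01). *Ftl1*, the ferritin light chain gene, stood at 0.09 ± 0.07 (SE), and *Ncoa4*, which brings ferritin to the lysosome, at 0.03 ± 0.05. These 2 genes and *Slc39a14* were named after their values had been seen. Genes of heme synthesis, transport and breakdown were higher in 9 of 19 (median -0.00), and genes of iron-sulfur cluster assembly in 4 of 10 (median -0.01). None of these groups had a member past the threshold. The probe of *Hamp*, the gene of hepcidin, which removes ferroportin from the cell surface, was among those not bright enough to be tested.

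**Figure D4:**
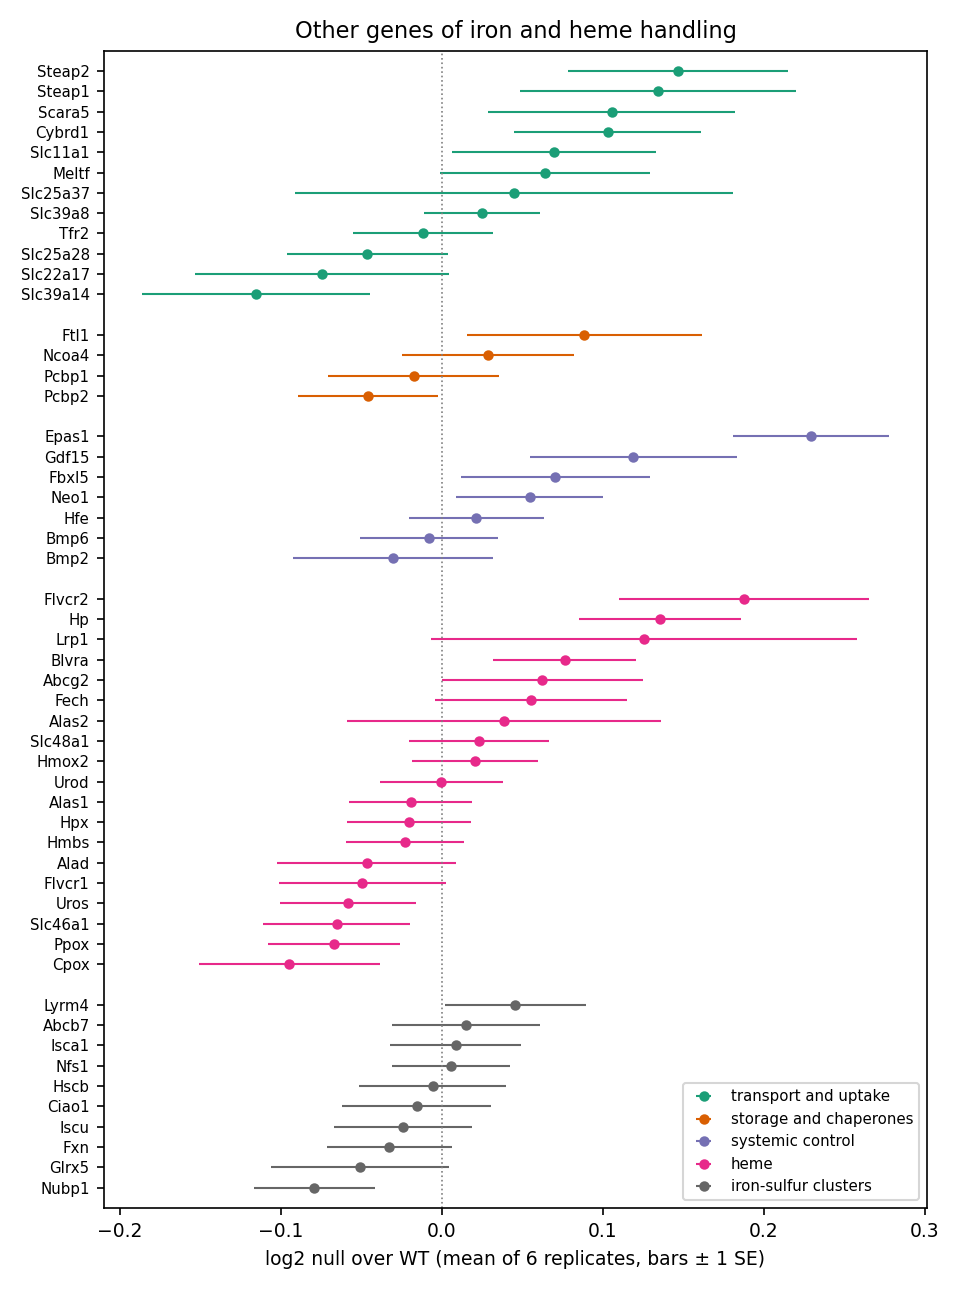
Mean log2 null over WT of 52 tested genes of iron and heme handling with bars of 1 SE, grouped by role and sorted within each group. The means lie between -0.12 and 0.23, and 0 of the 52 passed the threshold.

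Other cell types that express iron genes were followed by their markers. Ferroportin is abundant in macrophages that recycle iron and in erythroid cells. Macrophage markers (11 of 14 tested) had a list mean between 8.53 and 8.84 in null and between 8.55 and 8.76 in WT on the log2 signal scale, and a list mean ratio between -0.03 and 0.17 over the replicates. The recycling markers *Cd163* and *Mrc1* were detected on 0 of 12 arrays in either genotype. Erythroid markers (10 of 16 tested) had a list mean between 10.22 and 10.54 in null and between 10.33 and 10.52 in WT. Their mean ratio was -0.18 and -0.30 in null/WT and WT/null replicate 1, 0.12 and -0.12 in replicate 2 and 0.21 and 0.03 in replicate 3. The embryonic globin genes *Hbb-bh1* (-0.65, -0.25 and -0.12 on numbers 1, 2 and 3) and *Hba-x* (-0.67, 0.01 and 0.11) had the largest means in size. Both means were below 0, but 6 of the 10 tested erythroid markers were higher in null and 4 lower, with a median of 0.02. Among all tested genes 48.1% were higher. Another embryonic globin gene, *Hbb-y*, gave -0.16, 0.21 and 0.15. Of the 11 tested macrophage markers, 10 were higher in null and 1 lower, with a median of 0.06, against the same 48.1%. *Tyrobp* (-0.02, -0.02 and 0.57) and *Ptprc* (0.06, -0.05 and 0.41) had the largest means of that list. On number 3 its markers *Csf1r* (-0.04), *C1qb* (-0.08) and *Fcgr3* (-0.04) were below 0 and the rest above.

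Hepatocyte markers (6 of 13 tested), which bear on *Trf*, had a list mean ratio between -0.06 and 0.45, led by *Afp* (-0.07, 0.05 and 1.45 on numbers 1, 2 and 3) and *Alb* (-0.03, 0.14 and 0.28). Of the 6 markers, 4 were higher in null and 2 lower, where 48.1% of all tested genes were higher. The 2 lower ones were *Ahsg* (0.01, -0.03 and -0.25) and *Hpx* (-0.06, 0.03 and -0.02). *Trf* gave 0.13, 0.15 and 0.05 on the same numbers. Skeletal muscle markers (8 of 10 tested) had list mean ratios between 0.06 and 1.55, led by *Myh3* and *Tnnc2* (0.24, 0.59 and 2.32). The part of these markers in the values of the iron genes was not tested.

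**Figure D5:**
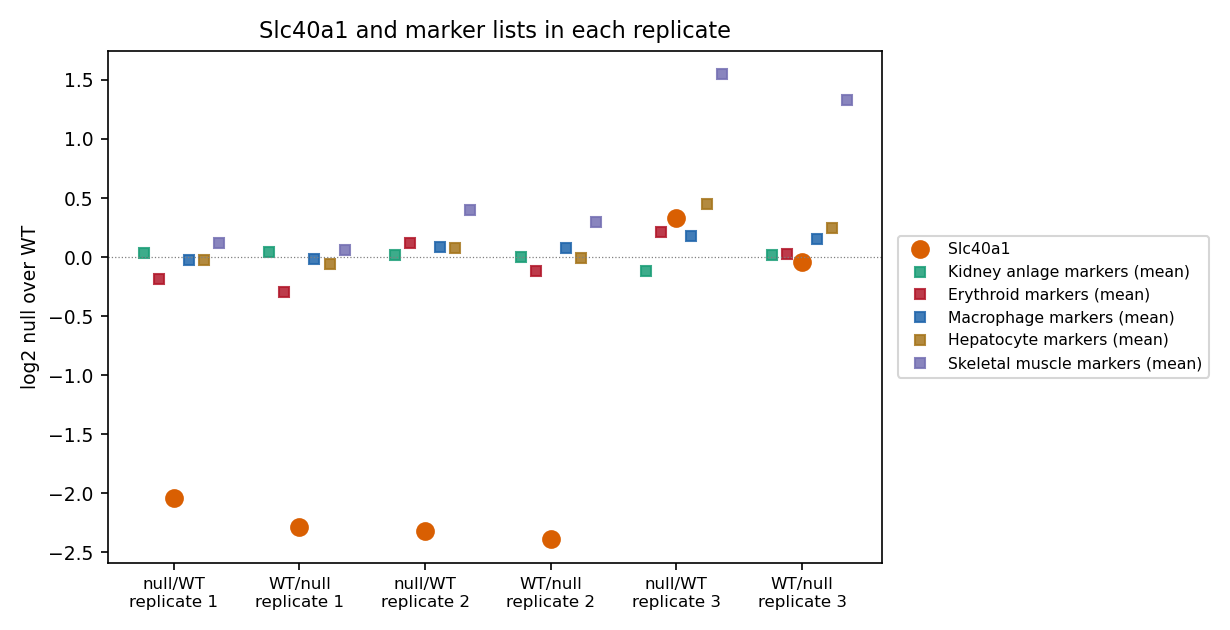
Log2 null over WT of *Slc40a1* and the mean of each marker list in the 6 replicates. *Slc40a1* lies between -2.39 and -2.04 in replicates 1 and 2, where the list means lie between -0.30 and 0.40, and in replicate 3 the muscle markers stand at 1.55 and 1.33.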

How the data were processed

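Per the file headers, the authors deposited median spot and local background intensity for each dye, unnormalised, and the log10 ratio of Cy5 over Cy3 from Agilent Feature Extraction 10.5.1.1 (6.1 per the submitters' processing notes). The authors' deposited value table holds log10 ratios, by size, and correlated at 0.998 to 0.999 with the scanner's ratio of the same array turned to null over WT, which settles its direction. Whether its columns were centred is not known. Its column medians were 0.000114, -0.00174, -0.00332, -0.00315, 0.00645 and 0.001455 for null/WT arrays and -0.00257, -0.004405, -0.000946, -0.000769, -0.0218 and -0.01 for WT/null arrays.

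Median intensities were background-corrected with normexp (offset 50) and normalised by loess within arrays in limma 3.58.1 (R 4.3.3). Control spots and 101 to 262 outlier spots per array were left out. Spots of a probe and arrays of a replicate were averaged. Log2 signals per genotype were read after quantile normalisation of average intensity. Null over WT was fitted with a dye term (lmFit, eBayes), with Benjamini-Hochberg adjustment over all tested probes, and checked on simulated data. Accessions were matched without version to a RefSeq gene table (GRCm38.p6), naming 25097 probes. Each gene was read by its brightest tested probe. Same-numbered samples deviated together (r = 0.587, 0.517 and 0.413) on a shared slide, so numbers were taken as pairs in a second fit.

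Members and lists were chosen with earlier results of these data known. Named were all members, the 3 wider-list genes with the smallest p in each direction, the 5 genes most like *Slc40a1* and the 2 largest of each marker list. The number of arrays limits the precision. Alternatives covered pairing, left-out replicates, normalization, background, dim probes, the authors' table and single arrays.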

Additional observations from a re-analysis of the deposited data

Results flagged for a closer look

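The dimmer *Slc11a2* probe, A_51_P388737, stood apart in WT/null replicate 3. Its log2 null over WT there was 0.62, and the gap to the nearest other replicate was 0.808 of the whole range of the 6 replicates, above Dixon's critical value for 6 samples. The first array of that replicate, which stood apart over all probes, gave 0.98 and its duplicate 0.25. Such a gap turns up by chance in about 1 in 20 groups, and 11 probes were examined.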

How the results depend on the processing

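The mean of *Slc40a1* stayed below 0 under every alternative run, between -2.26 without replicate number 3 and -1.01 without number 2. Each alternative kept number 1 or number 2, so this direction was fixed in advance. Leaving out a single replicate gave -1.82 to -1.27. On numbers 1 and 2 it lay between -2.56 and -2.12, and was -2.56 by the scanner software's ratio and by the authors' value table. On number 3 it lay between -0.04 and 0.37. The SD over the 6 replicates served as the limit for a move, and was 1.25 for *Slc40a1*, whose numbers differed. A mean cannot move by 1 SD when a single replicate or a replicate number is left out. The replicate block and the filter on dim probes leave it unchanged. Those values were fixed in advance, so the count that includes them is no measure of stability. Of 200 values of the member probes and genes under alternatives, 197 moved by less than 1 SD. The other 3 moved with median centring in place of loess, which put the median of all tested probes at 0.14: *Slc11a2* (A_52_P254298) then stood at 0.08, *Hmox1* at 0.26 and *Aco1* (A_51_P391082) at 0.14. The sign of members other than *Slc40a1*, *Trf* and *Hmox1* changed under at least one alternative.

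The count of all probes past the threshold (9) was 4 with the replicate block and 15 once one array of WT/null replicate 3, the first, was left out (an alternative chosen after seeing the data), and between 3 and 62 when samples were left out. It was 62 without replicate number 3, 3 without number 2 and 5 without null/WT replicate 2. The replicate block changed no call of a member. Of the wider iron list 0 to 1 passed, and the 1 was *Lrp1*, without number 3.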

Other observations

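A few genes of the wider iron list differed between replicate numbers, and they were picked out after their values had been seen. *Lrp1*, which encodes a receptor that also clears heme bound to hemopexin, gave 0.37, 0.39 and -0.38 on numbers 1, 2 and 3, so its sign turned on the number where *Slc40a1* stood near WT. *Slc25a37*, which encodes the mitochondrial iron importer mitoferrin 1 of erythroid cells, gave -0.46, 0.18 and 0.41, and *Alas2*, the erythroid enzyme of heme synthesis, gave -0.21, -0.07 and 0.40. *Alas2* is also one of the 10 tested erythroid markers.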
